A study of Bos taurus with 43 samples.

Results

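AMPD1, CKM, CKMT2 and AK1 encode the muscle AMP deaminase, the cytosolic and the sarcomeric mitochondrial creatine kinase, and the cytosolic adenylate kinase. Their signals were followed over the biceps brachii muscle of 43 cattle, each hybridized on its own to a bovine Agilent array with 1 dye. The 4 genes were found by name, through the gene name and description of each probe in the scanner files or through RefSeq, which gave 4 of the 15688 named genes and 6 of the 21475 gene probes. All cattle were male according to the study. Of the commercial animals, sampled at slaughter and mostly Charolais, Limousine or crosses of both, 4 (S21, S54, S56 and S57) are labelled as suspected of corticosteroid treatment. They are called positive here because the study found them positive by thymus histology and by dexamethasone residues in urine. Dose and time of any treatment, and any agent beside dexamethasone, were unknown. A further 21 commercial animals carry a label of unknown treatment. The study detected no dexamethasone in their urine, and held some of them to be dubious by histology. The negative controls were 5 Charolais × Limousine bulls (K7, K8, K10, K11 and K12) of a single age and 13 Holstein cattle (C17 to C48) of that age or younger, from earlier controlled experiments, while the ages of the commercial animals spread more widely. The breeds of the controls come from the study, which gives these numbers, since the labels only separate K from C. The study had also drawn groups from a principal component analysis (PCA) of these arrays, namely groups 1 to 4 over all animals and groups A and B without the Holstein controls. Group 1 held the 13 Holstein controls, group 2 the 5 cross-breed controls and 5 unknown animals, group 3 the 4 positive and 9 unknown animals, and group 4 held 7 unknown animals. Group B joined group 3 and animal 76 of group 4, and group A held group 2 and the 6 other animals of group 4.

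Contracting muscle spends ATP faster than it can be made from fuel, and these enzymes refill and balance the adenine nucleotides in the meantime. Creatine kinase moves phosphate between phosphocreatine and ADP, with CKM at the myofibrils and CKMT2 at the mitochondria of striated muscle. AK1 turns ADP into ATP and AMP, and AMPD1 removes that AMP by deamination to IMP, the first step of the purine nucleotide cycle. AMP deaminase and the cytosolic kinases are known for high activity in fast glycolytic fibres, and sarcomeric mitochondrial creatine kinase for fibres rich in mitochondria.

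AMPD1 (A_73_116442) and CKM (A_73_117171) had 1 probe each. CKMT2 was read by A_73_100299, the brighter probe, and by A_73_117375. The latter stands under the same RefSeq record but is described as CKMT1A, the ubiquitous mitochondrial enzyme, so that its target is uncertain. AK1 was read by A_73_101774, the brighter probe, and by A_73_107440. Each probe was printed as 2 spots, all 6 probes were well above background and unsaturated on all 43 arrays, and all passed the filter on dim probes, which kept 16354 of the 21475 probes. Values below are normalized log2 signals, or log2 differences between them, and levels of different probes were not compared except to name the brightest probe of a list. The study measured AMPD1 by qRT-PCR with the primer pair below, designed on the RefSeq record that also names the array probe, and the sequences are shown because they fix the transcript that both assays aim at. They are given 5′ to 3′ without marked bases.
AMPD1 forward primer: atgttcatgctggacgtcagac
AMPD1 reverse primer: tgctcctacgggattgtatttgt

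The arrays lay on 19 slides scanned on 13 days. Slides, scan days and scanners of the cross-breed controls were theirs alone, with K7 and K8 on another scanner than K10, K11 and K12, so that for each comparison with them the group and the batch cannot be told apart. The positive animals shared slide 8 with unknown animals 50 and 81 and slide 9 with unknown animals 78 and 79. Of all spots, 40.2% were well above background in animal 79, the lowest share, and 62.3% to 97.3% in the others. The 5 animals of lowest spike-in signal were 29, 39, 52, 61 and 76. Of 6 skeletal muscle markers, 5 were well above background on all arrays, and CASQ1 on 25 of 43. Over ACTA1, DES, MB, TTN, CASQ1 and MYOT the mean log2 signal was 14.21 ± 0.30 (SD, n = 5) in the cross-breed controls, 13.88 ± 0.27 (n = 13) in the Holstein controls and 13.89 ± 0.17 (n = 4) in the positive animals, in which ACTA1 and MB rose by 1.41 and 0.82 on the log2 scale while DES, TTN and CASQ1 had log2 differences of -0.54, -1.47 and -2.27 from the cross-breed controls and passed.

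The AMPD1 signals fell into a higher and a lower level, with animal 265 the lowest of the higher. In the cross-breed controls its log2 signal was 14.49 in K10, 14.51 in K12, 14.61 in K11, 14.78 in K7 and 15.05 in K8. In the 13 Holstein controls it ran from 14.13 to 14.74, with a median of 14.41. Both sets of untreated animals were therefore high and their ranges overlapped. The positive animals had 12.18 (S56), 12.32 (S57), 12.36 (S21) and 12.45 (S54), all below every control. Among the unknown animals, the 5 of group 2 had 13.49 (animal 265), 14.11 (263), 14.26 (270), 14.26 (266) and 14.36 (269). The 7 of group 4 ran from 12.03 (animal 58) to 12.62, with a median of 12.59, and the 9 of group 3 from 11.72 (animal 78) to 12.71 (animal 61), with a median of 12.51. The unknown animals were thus split, with those of group 2 near the controls, though below every cross-breed control and partly below the Holstein controls, and those of groups 3 and 4 near the positive animals.

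**Figure D1:**
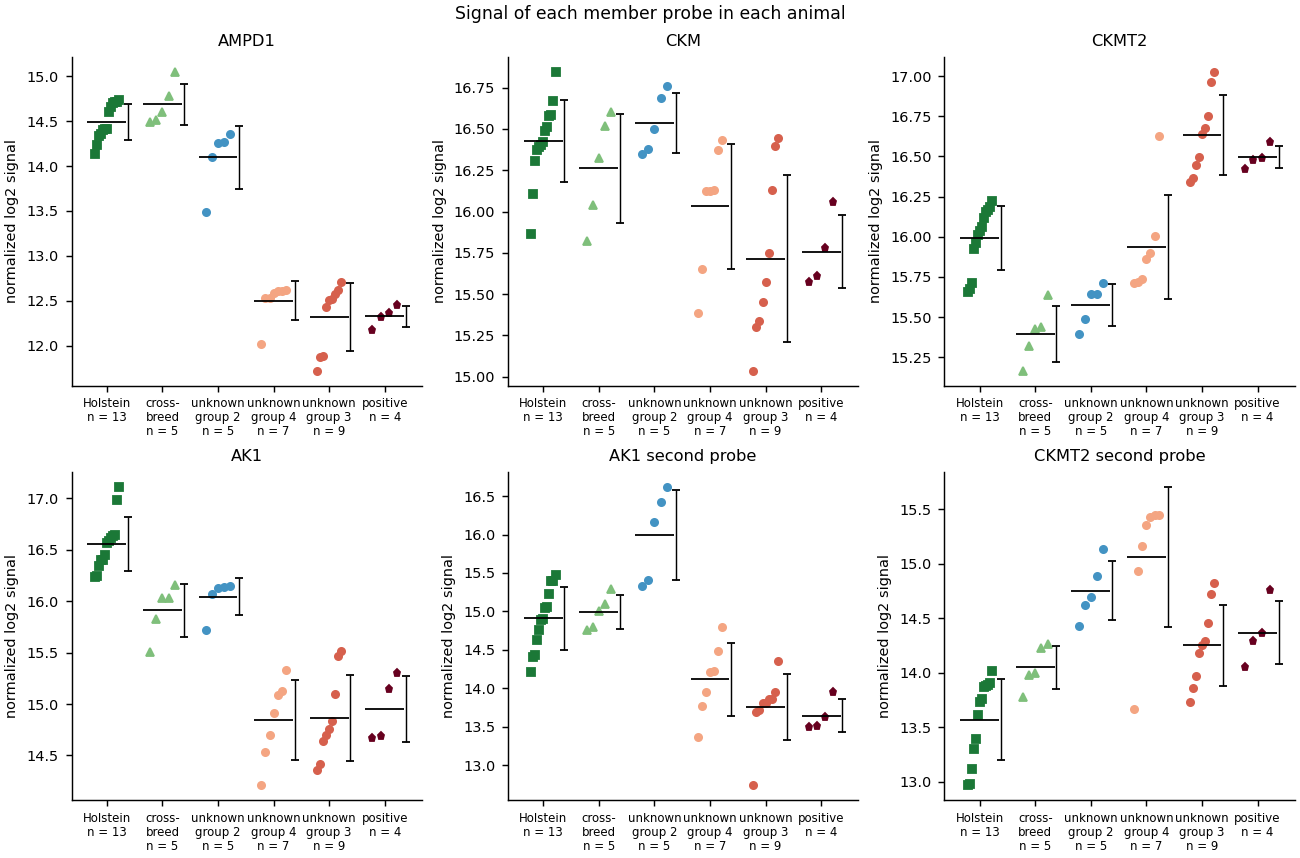
Normalized log2 signal of each member probe (vertical axes, different scales) in each of 43 animals, by label group and, for unknown animals, by PCA group of the study. Points are animals, horizontal lines are means and vertical bars are SDs. AMPD1 lies at 13.49 or above in the animals of groups 1 and 2 and at 12.71 or below in those of groups 3 and 4.

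Over all 43 animals, none lay between 12.71 and 13.49 for AMPD1, and this gap fell exactly between the 23 animals of groups 1 and 2 and the 20 animals of groups 3 and 4. Of the 16354 probes, 0.587% (96 probes) likewise separated these sets without overlap, and AMPD1 was the only member probe among them. The means of the sets differed by -2.06 on the log2 scale, and 9.95% of all probes differed by at least 2-fold. AMPD1 was itself among the probes from which the groups had been drawn, so that no test was made of this split. The gap remained under 6 other settings of background correction, normalization and outlier spots, at 0.22 without normalization between arrays and at 0.45 to 0.78 otherwise. In the main values its upper edge was animal 265 alone, with the next higher animal (263) at 14.11.

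Against the cross-breed controls, AMPD1 fell in the positive animals from 14.69 ± 0.23 (SD, n = 5) to 12.33 ± 0.12 (n = 4). The log2 difference was -2.36 (standard error 0.155, 95% interval -2.70 to -2.02, limma adjusted p = 3.35e-06), a 5.13-fold lower signal. Of the 6 member probes, 4 passed an adjusted p of 0.05 here, where 51.7% of all probes did. The ranges of both groups were apart for 43.3% of all probes, and for AMPD1, CKMT2 and both AK1 probes. With a change of at least 2-fold also asked for, 3 of 6 were called, where 28.1% of all probes were. Under every alternative tried, AMPD1 kept an adjusted p of at most 4.29e-05. For the Holstein against the cross-breed controls its log2 difference was -0.19 (95% interval -0.45 to 0.07, limma adjusted p = 0.202). In the 21 unknown animals it was lower than in the cross-breed controls by a log2 difference of -1.88 (standard error 0.359, limma adjusted p = 0.000441), which averages over both levels. No unknown animal reached the lowest cross-breed control, as for 4.21% of all probes in either direction. These 3 comparisons share the same 5 cross-breed controls.

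The unknown animals of groups 2 and 4 differed most clearly in AMPD1 and AK1. Mean AMPD1 was 14.10 ± 0.35 (SD, n = 5) in group 2 and 12.50 ± 0.21 (n = 7) in group 4, a log2 difference of -1.59, and 17.7% of all probes differed by at least 2-fold between these sets. Groups drawn from the PCA of these arrays were compared without a test. On slide 6, which held unknown animals of both sets, AMPD1 was 14.36 in animal 269 of group 2 and 12.59 and 12.03 in animals 36 and 58 of group 4. Over the whole of scan day 5 the 5 animals of group 2 had a mean of 14.10 and these 2 of group 4 a mean of 12.31, so that the difference was also present within a slide and within a scan day. Except for animal 76, the unknown animals of groups 2 and 4 all belong to group A. Within the 11 unknown animals of group A, AMPD1 therefore ranged from 12.03 to 14.36, with 6 animals at 12.62 or below and 5 at 13.49 or above. Group B ran from 11.72 to 12.71, and its mean lay 1.34 below that of group A on the log2 scale, against 23.8% of all probes with a difference of at least 2-fold. The probe of ZFY, a Y-linked gene, had a log2 signal of 2.84 to 4.53 in these 11 animals and of 5.47 to 7.26 in the 32 others, and thus was low on both sides of the AMPD1 gap. Slides 5, 6 and 7 and scan days 4 and 5 held these 11 animals and no others. Low ZFY and batch can therefore not be told apart. Low signal of a Y-linked gene goes against the study's statement that all animals were male, and this was not settled here.

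AK1 was also low in the positive animals. In the cross-breed controls it was 15.51 in K11, 15.83 in K12, 16.03 in K8, 16.03 in K10 and 16.16 in K7. The positive animals had 14.67 (S54), 14.69 (S56), 15.15 (S21) and 15.30 (S57), all below the cross-breed controls. The log2 difference of the positive animals from them was -0.96 (standard error 0.193, limma adjusted p = 0.00215), or 1.94-fold lower. It no longer passed with 75th percentile scaling (-0.60, limma adjusted p = 0.0579) and with normexp background correction (-0.65, limma adjusted p = 0.0625). At the second probe, the means were 14.99 ± 0.22 (SD, n = 5) and 13.65 ± 0.21 (n = 4), and the log2 difference was -1.34 (standard error 0.164, limma adjusted p = 9.73e-05).

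The Holstein controls had AK1 signals from 16.23 to 17.11, with a median of 16.56, above all cross-breed controls. Such a lack of overlap was found for 16.2% of all probes. The log2 difference was 0.64 (standard error 0.145, limma adjusted p = 0.00144). The second probe gave -0.08 (95% interval -0.49 to 0.33, limma adjusted p = 0.759), so that the probes of AK1 disagreed in this comparison. Of the 6 member probes, 3 passed between both control sets, where 48.3% of all probes did. None of them reached a change of at least 2-fold, which 20.6% of all probes did. For the unknown animals against the cross-breed controls, AK1 had a log2 difference of -0.77 (95% interval -1.36 to -0.19, limma adjusted p = 0.0507), and 2 of 6 member probes passed, AMPD1 and the brighter CKMT2 probe, against 22.1% of all probes. AMPD1 alone was also called at 2-fold, against 10.4%.

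Within the unknown animals, AK1 separated group 2 from group 4 as AMPD1 did. It was 15.72 in animal 265 and 16.07 to 16.15 in the other 4 animals of group 2, and it ran from 14.21 (animal 58) to 15.33 (animal 49) in group 4, with a median of 14.91. The ranges did not overlap, and the log2 difference of the means was -1.20. The second probe ran from 15.33 to 16.62 in group 2 and from 13.36 to 14.80 in group 4, a difference of -1.88, again without overlap. The same held for 16.3% of all probes. The 9 unknown animals of group 3 lay with group 4, from 14.36 to 15.51 at the brighter probe.

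CKM was bright in every animal and ran from 15.04 (animal 79) to 16.85 (C22). In the cross-breed controls it was 15.82 (K12), 16.04 (K10), 16.33 (K7), 16.52 (K8) and 16.60 (K11), and in the positive animals 15.58 (S56), 15.61 (S54), 15.78 (S21) and 16.06 (S57). The groups overlapped through S57, K12 and K10. The log2 difference was -0.51 (standard error 0.195, 95% interval -0.94 to -0.07) and missed the threshold (limma adjusted p = 0.0505). It passed with quantile normalization (-0.56, limma adjusted p = 0.0171) and with cyclic loess over all pairs of arrays (-1.06, limma adjusted p = 0.00142), under which the median of all probes was -0.13 and -0.25, against -0.03. Between both control sets the log2 difference was 0.17 (95% interval -0.15 to 0.48, limma adjusted p = 0.374), a sign that turned with quantile normalization (-0.10). For the unknown animals against the cross-breed controls it was -0.25 (95% interval -0.74 to 0.25, limma adjusted p = 0.494). Group 2 of the unknown animals had 16.35 to 16.76, group 4 had 15.39 (animal 76) to 16.43 and group 3 had 15.04 to 16.45, so that all 3 overlapped.

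CKMT2, at its brighter probe, moved the other way. The cross-breed controls had 15.17 (K8), 15.32 (K12), 15.43 (K11), 15.44 (K10) and 15.64 (K7), while the positive animals had 16.42 (S56), 16.48 (S54), 16.49 (S21) and 16.59 (S57), all above them. CKMT2 was 2.14-fold higher in the positive animals, with a log2 difference of 1.099 (standard error 0.137, limma adjusted p = 0.00011). Without any normalization between arrays the difference was 0.30 (limma adjusted p = 0.571), with the median of all probes at -1.07. The Holstein controls ran from 15.66 to 16.22, above the cross-breed controls by a log2 difference of 0.59 (limma adjusted p = 0.000445). The unknown animals had a log2 difference of 0.75 (standard error 0.237, limma adjusted p = 0.0229) from the cross-breed controls. Without K7 and K8 it was 0.76 (limma adjusted p = 0.109), without K8 0.70 (limma adjusted p = 0.0709), without K12 0.73 (limma adjusted p = 0.0585) and without the 5 animals of low spike-in signal 0.60 (limma adjusted p = 0.061).

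The brighter CKMT2 probe separated group A from group B, which AMPD1 did not. In the unknown animals of group 2 it was 15.39 to 15.71 and in the 6 animals of group 4 that belong to group A it was 15.71 to 16.01, so that these sets met at 15.71, while the 9 unknown animals of group 3 had 16.34 to 17.02. Animal 76, the animal of group 4 that belongs to group B, had 16.63. All 14 animals of group B lay above all 16 of group A, with means of 16.59 and 15.61, and 4.5% of all probes had ranges of these groups that did not overlap. Both groups had been drawn from these arrays. They shared no slide and no scan day, so that group and batch cannot be told apart here. Of the 16 animals of group A, 11 had the low ZFY signal given above, and its part in this result was not tested. The 5 others, the cross-breed controls, had CKMT2 signals of 15.17 to 15.64.

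The second CKMT2 probe gave another pattern. It was 14.05 ± 0.20 (SD, n = 5) in the cross-breed controls and 14.37 ± 0.29 (n = 4) in the positive animals, a log2 difference of 0.32 (95% interval -0.07 to 0.71, limma adjusted p = 0.152). In the Holstein controls it was lower than in the cross-breed controls by a log2 difference of -0.48 (limma adjusted p = 0.0347), opposite to the brighter probe. For the unknown animals the difference from the cross-breed controls was 0.59 (95% interval 0.06 to 1.13, limma adjusted p = 0.104). It was 14.93 to 15.45 in the 6 animals of group 4 within group A, 14.43 to 15.13 in the unknown animals of group 2 and 13.67 in animal 76. The mean of group B lay 0.49 below that of group A on the log2 scale, with overlapping ranges, opposite to the brighter probe.

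**Figure D2:**
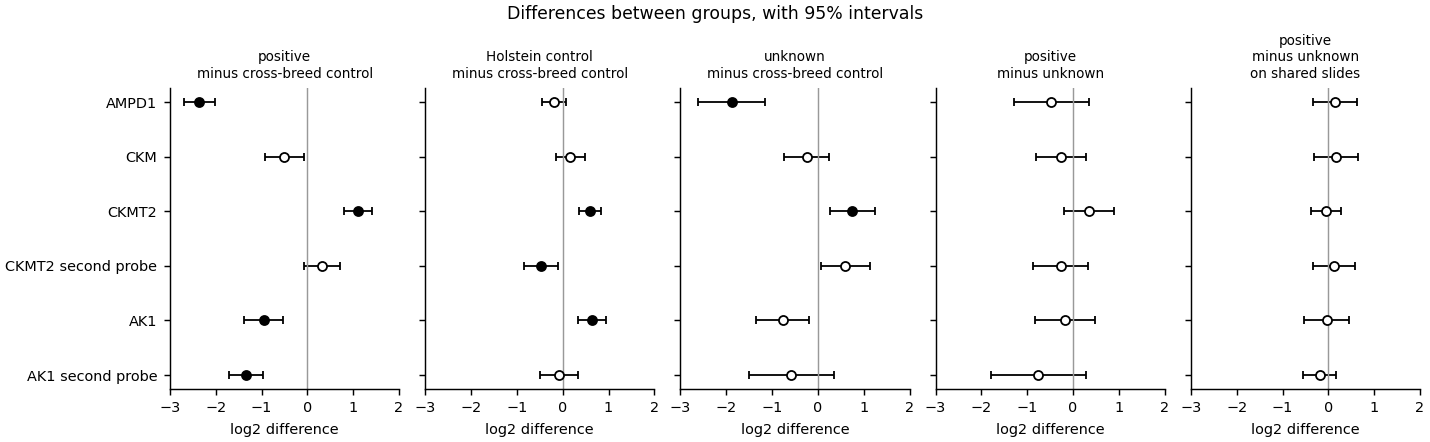
Log2 differences (horizontal axes) of the 6 member probes in the 5 tested comparisons, with 95% intervals from limma. Filled points passed an adjusted p of 0.05. AMPD1 lies at -2.36 for the positive animals against the cross-breed controls and at -0.19 for the Holstein controls.

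Between the positive and the unknown animals, none of the 6 member probes passed, with unadjusted p from 0.142 to 0.566 and adjusted p from 0.329 to 0.722 by limma. Of all probes, 0.0489% (8 probes) passed, and 3889 had an unadjusted p under 0.05. The log2 difference of AMPD1 was -0.48 (95% interval -1.29 to 0.34). On slides 8 and 9, which held both groups, the positive animals were set against unknown animals 50, 78, 79 and 81, all of group 3, with the slide as a block. The log2 differences were 0.15 for AMPD1 (95% interval -0.34 to 0.63), 0.17 for CKM (-0.32 to 0.65), -0.05 for CKMT2 (-0.37 to 0.28) and -0.04 for AK1 (-0.53 to 0.46). None of the 6 passed (limma adjusted p from 0.66 to 0.955, unadjusted p from 0.262 to 0.867), and 0.0% of all probes did (0 probes, with 1872 at an unadjusted p under 0.05). The interval of AMPD1 lies far from its difference of -2.36 from the cross-breed controls, but a change of up to 0.63 on the log2 scale could not have been told from none.

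Most genes of fast fibres fell in the positive animals, as AMPD1 and AK1 did. Of 9 fast fibre genes tested, 7 fell in the positive animals against the cross-breed controls (ACTN3, MYH1, TNNT3, TNNC2, MYLPF, ATP2A1 and MYBPC2), 1 rose (MYL1) and 1 did not pass (PVALB), where 26.2% of all probes fell and 25.5% rose, with a median log2 difference of -3.34 against -0.03 for all probes. ATP2A1, the calcium pump of fast fibres, fell by 5.12 on the log2 scale (limma adjusted p = 6.38e-05). The mean log2 signal over the 9 genes was 15.32 ± 0.36 (SD, n = 5) in the cross-breed controls, 16.26 ± 0.26 (n = 13) in the Holstein controls, 12.19 ± 0.90 (n = 4) in the positive animals, and 15.58 ± 0.46 (n = 5), 13.17 ± 0.76 (n = 7) and 12.90 ± 1.67 (n = 9) in the unknown animals of groups 2, 4 and 3. It was 14.89 or above in all animals of groups 1 and 2 and 14.58 or below in all others, the same split as that of AMPD1. Among the unknown animals of group 3 this mean ran from 10.68 to 14.58 and AMPD1 from 11.72 to 12.71, but not in the same order. Animal 61 had the lowest mean with the highest AMPD1, and animal 78 had the lowest AMPD1 with a mean of 13.63. Animals 60 (11.58 and 11.89) and 79 (11.29 and 11.88) were low in both. The relation within groups was not tested. Averaged over all 43 arrays, the brightest probe was that of MYL1, and all 9 were well above background on at least 42 arrays.

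Of 8 slow fibre genes tested, 5 rose in the positive animals (MYH7, MYL2, MYL3, TNNT1 and MYL6B), where 25.5% of all probes did, and none fell, with a median log2 difference of 1.05. With cyclic loess over all pairs 1 gene rose and 1 fell, with a median of 0.05. The mean log2 signal over the 8 genes was 15.92 ± 0.31 (SD, n = 5) in the cross-breed controls, 16.43 ± 0.23 (n = 13) in the Holstein controls and 16.81 ± 0.12 (n = 4) in the positive animals. In the unknown animals it was 14.89 ± 0.24 (n = 5) in group 2, 15.87 ± 0.23 (n = 7) in group 4 and 16.83 ± 0.11 (n = 9) in group 3. Averaged over all arrays, the brightest probe was that of TNNC1, and all 8 were well above background on all arrays. In whole muscle, fewer fibres of a type and less RNA per fibre cannot be told apart, and the part of fibre type in the results of AMPD1, AK1 and CKMT2 was not tested.

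**Figure D3:**
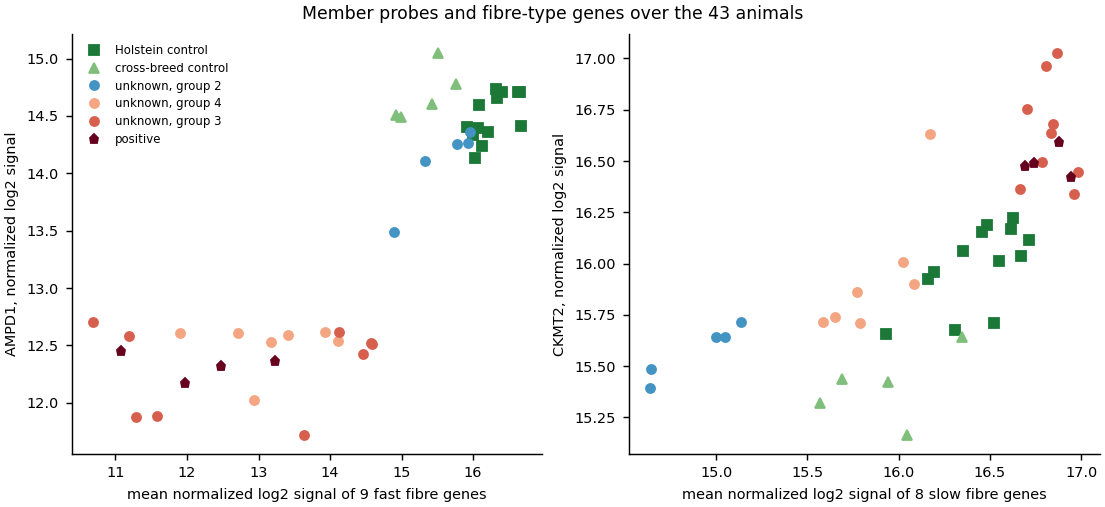
AMPD1 against the mean of 9 fast fibre genes (left) and CKMT2 against the mean of 8 slow fibre genes (right), as normalized log2 signals, 1 point per animal, coloured by group. On the left the animals of groups 3 and 4 lie at 14.58 or below on the horizontal axis and at 12.71 or below for AMPD1.

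Genes of other cell types also differed between the groups. Against the cross-breed controls, 25.5% of all probes rose and 26.2% fell in the positive animals and 23.9% rose and 24.4% fell in the Holstein controls. Of 4 adipocyte genes tested, 3 rose in the positive animals against the cross-breed controls and all 4 rose in the Holstein controls, with FABP4 higher by 5.23 and 5.03 on the log2 scale. LEP, a defining adipocyte gene, did not pass the filter on dim probes and was well above background on 19 of 43 arrays. The mean over 5 adipocyte genes was 4.35 in the cross-breed controls, 6.64 in the Holstein controls, 6.72 in the positive animals and 5.81, 6.78 and 6.68 in the unknown animals of groups 2, 4 and 3. The Holstein controls and the positive animals thus lay close together. Of 4 fibroblast genes, the 3 collagens fell in the positive animals and all 4 genes rose in the Holstein controls. Averaged over all arrays, the brightest probe was that of DCN. The leukocyte genes PTPRC, CD3E and LYZ did not pass in either comparison. Both erythroid genes, HBA and HBB, rose in the positive animals, by 1.71 and 1.001. Of the endothelial genes CDH5 rose (0.74) and PECAM1 did not pass. The part of these cells in the results was not tested.

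Correlations were taken within groups, because the groups differ in level. In the 13 Holstein controls, 6 pairs of members were tested by permutation. CKM and CKMT2 had the highest correlation (Pearson's r = 0.637, permutation p = 0.017, adjusted over 6 pairs 0.102, Spearman's rho = 0.593, permutation p = 0.0358, adjusted 0.215). Without the 2 animals farthest from the median of CKM it was 0.365, so that it rested in part on those, and after subtraction of scan-day means 0.712 (n = 12). AMPD1 and AK1 had r = 0.351 (permutation p = 0.242, adjusted 0.45) and rho = 0.407 (permutation p = 0.166, adjusted 0.499), with r = 0.288 without 2 animals and 0.438 within scan days. AMPD1 had r = 0.204 with CKM (permutation p = 0.509, adjusted 0.509, rho = 0.0659, permutation p = 0.834, adjusted 0.993) and 0.256 with CKMT2 (permutation p = 0.394, adjusted 0.473, rho = 0.115, permutation p = 0.711, adjusted 0.993), and both were 0.237 without 2 animals. AK1 had r = -0.348 with CKM (permutation p = 0.244, adjusted 0.45, rho = 0.00549, permutation p = 0.993, adjusted 0.993), which rested on 2 animals and was 0.312 without them. With CKMT2 it had r = -0.311 (permutation p = 0.3, adjusted 0.45, rho = -0.33, permutation p = 0.271, adjusted 0.542) and -0.406 without 2 animals. No pair passed after adjustment (adjusted p from 0.102 to 0.509, unadjusted p under 0.05 for CKM and CKMT2 only), although CKM and CKMT2 passed under 5 alternatives of scaling and background correction (r from 0.691 to 0.908). No relation was shown between AMPD1 and AK1 among these animals.

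AMPD1 split the unknown animals into separate sets, and no correlation was taken over all 21. In the 9 unknown animals of group 3, r between AMPD1 and AK1 was 0.142 (rho -0.15), between AMPD1 and CKMT2 -0.454 (rho -0.383) between CKM and AK1 0.619 (rho 0.7), between AMPD1 and CKM 0.507 (rho 0.25), between CKMT2 and AK1 -0.37 (rho -0.3) and between CKM and CKMT2 0.00461 (rho 0.0). In the 7 of group 4 these were, in the same order, 0.629 (rho -0.0357), -0.0467 (rho -0.357), 0.715 (rho 0.714), 0.417 (rho 0.107), -0.486 (rho -0.393) and -0.827 (rho -0.5). Without animal 76 they were 0.772 (rho 0.0857), -0.776 (rho -0.829), 0.731 (rho 0.6), 0.902 (rho 0.486), -0.498 (rho -0.0857) and -0.542 (rho -0.2), with n = 6. For AMPD1, r in group 4 includes animal 58, at 12.03 against 12.53 to 12.62 in the others, and was not taken without it. By rank, AMPD1 and AK1 were thus hardly related there. CKM and CKMT2, the pair of highest r in the Holstein controls, thus had r near 0 in group 3 and below 0 in group 4. Without the 2 farthest animals their r in group 3 was -0.5. These are descriptions of few animals that share a normalization, and carry no p.

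The probes of CKMT2 followed each other in some sets and opposed each other in another. Their r was 0.82 in the Holstein controls (n = 13) and 0.824 in the unknown animals of group 3 (n = 9). In group 3 it was 0.51 without the 2 farthest animals. In group 4, however, it was -0.986 (n = 7), and -0.867 there without animal 76 (n = 6). The AK1 probes had r = 0.714 in the Holstein controls, 0.447 in group 3 and 0.225 in group 4. These were 0.634 in group 3 without the 2 farthest animals and -0.0304 in group 4 without animal 76.

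**Figure D4:**
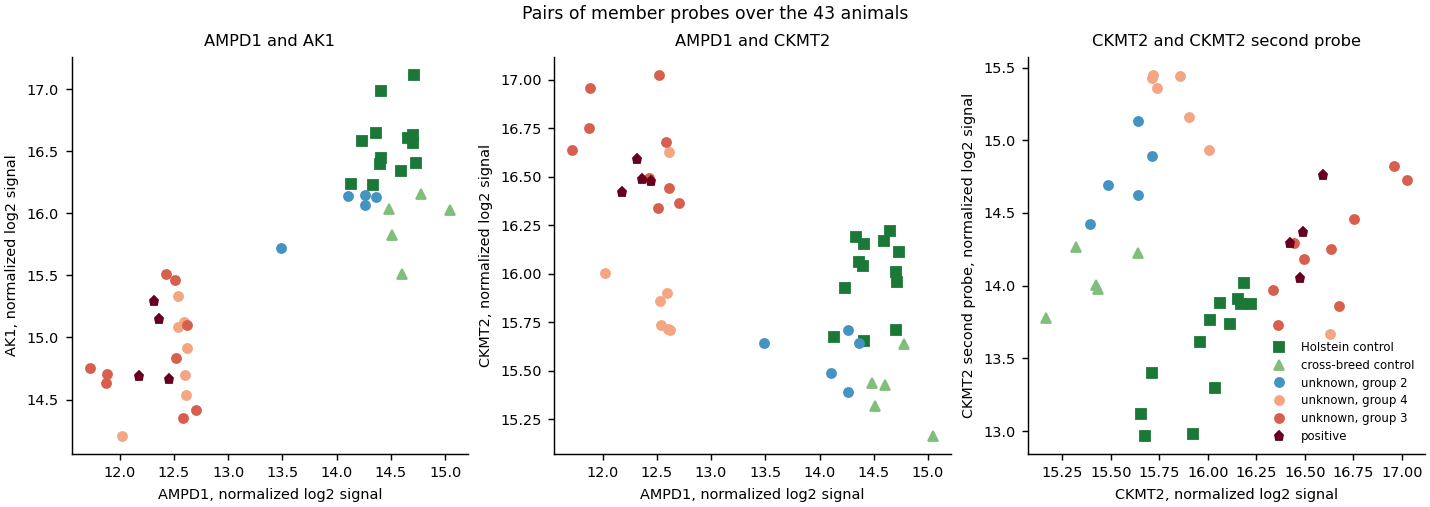
Normalized log2 signals of pairs of member probes, 1 point per animal, coloured by group: AMPD1 and AK1 (left), AMPD1 and CKMT2 (middle), and both CKMT2 probes (right). AMPD1 lies at 12.71 or below or at 13.49 or above. In the right panel group 4 runs against the direction of the Holstein controls (r = -0.986 and 0.82).

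Likeness to each member was ranked over all 43 arrays by Pearson's r after the mean of each label group had been subtracted, as a description without a test, among 7659 named probes well above background on all arrays. The label group of unknown animals still holds both levels of AMPD1. Closest to AMPD1 were USP28 (0.899), PHKA1 (0.893), FILIP1L (0.884), PPP1R3A (0.873) and FGF13 (0.867). Closest to AK1 were FGF13 (0.881), MLF1 (0.868), ACTN3 (0.864), PPP3CB (0.858) and PKM (0.857), of which ACTN3 is also on the fast fibre list. Closest to CKM were SYPL2 (0.827), GAPDH (0.816), KLHDC3 (0.816), EIF4G2 (0.807) and PDLIM3 (0.801). Among those closest to CKMT2 were TCAIM (0.916), PI4KA (0.909), ACTN2 (0.909) and GBF1 (0.909). On the same measure, AMPD1 had 0.775 with AK1, 0.645 with CKM and -0.634 with CKMT2. These values span the split of the unknown animals. Within sets, r of AMPD1 and AK1 was 0.351 in the Holstein controls, 0.142 in group 3 and 0.629 in group 4.

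The genes around these enzymes were read from 6 lists of 39 genes, of which 37 were on the array and 34 passed the filter. In the positive animals against the cross-breed controls, 8 rose and 9 fell, where 25.5% and 26.2% of all probes did, with a median log2 difference of 0.06 against -0.03 for all probes. In the Holstein controls 11 rose and 12 fell, against 23.9% and 24.4% of all probes, and in the unknown animals 5 rose and 6 fell, against 11.4% and 10.7%. The lists thus moved in both directions in each comparison.

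Most of the other AMP deaminases and purine nucleotide cycle enzymes fell in the positive animals. Of AMPD2, AMPD3, ADSL, ADSS1 and ADSS2, 4 fell and none rose, where 26.2% of all probes fell and 25.5% rose, with a median log2 difference of -1.19, and ADSS2 had 0.30 (limma adjusted p = 0.2). ADSS1, the muscle adenylosuccinate synthase that returns IMP to the cycle, was 8.84 ± 0.16 (SD, n = 5) in the cross-breed controls and 6.99 ± 0.19 (n = 4) in the positive animals and fell by 1.85 (limma adjusted p = 7.91e-06). ADSL, the lyase that follows it, was 12.14 ± 0.16 and 10.67 ± 0.30 and fell by 1.48 (limma adjusted p = 6.94e-05). AMPD3, the erythrocyte form of AMP deaminase, fell by 1.19 (limma adjusted p = 0.0137) and AMPD2, the liver form, had -0.56 (limma adjusted p = 0.00907). With scan day as a random block AMPD3 no longer passed. In the Holstein controls, where AMPD1 did not pass, 3 of these genes fell and 1 rose, against 24.4% and 23.9% of all probes. AMPD3 fell by 1.52 (limma adjusted p = 0.000676) and ADSS1 had -0.997 (limma adjusted p = 0.00112), ADSL had -0.51 (limma adjusted p = 0.0188), while ADSS2 rose by 0.43 (limma adjusted p = 0.00618). In the unknown animals AMPD3 fell by 1.12, ADSS1 by 1.40 and ADSL by 0.91. With these 3 genes passing as lower in the unknown animals, 10.7% of all probes did. Without K7 and K8, 1 gene of the list passed as lower there, against 3 with them. Of the 16354 probes, 964 passed as lower without K7 and K8, against 1747 with them.

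**Figure D5:**
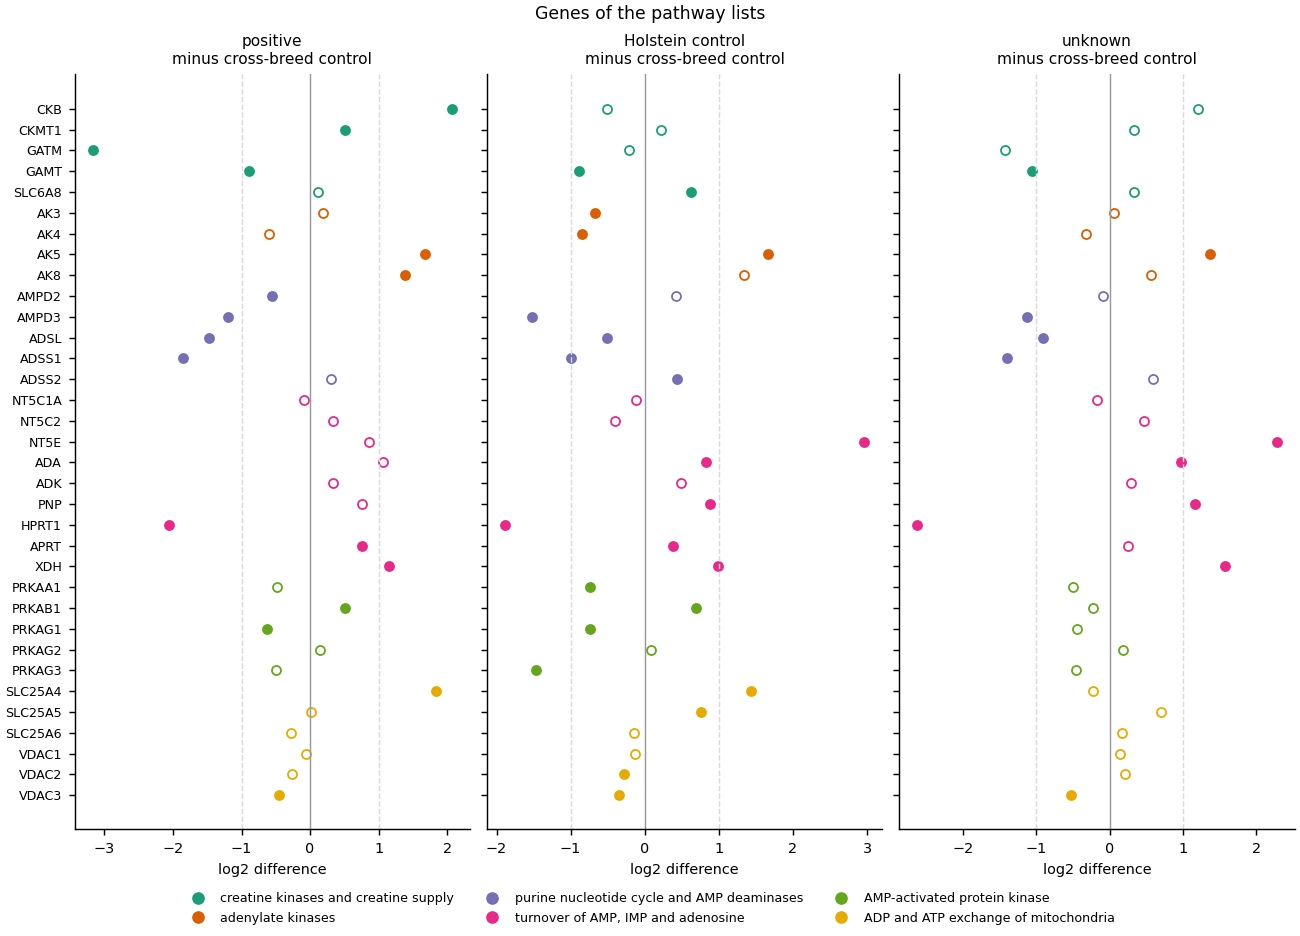
Log2 differences (horizontal axes, different ranges) of the 34 tested genes of 6 pathway lists against the cross-breed controls, in the positive, Holstein control and unknown animals. Filled points passed an adjusted p of 0.05, and dashed lines mark a 2-fold change. ADSS1 lies at -1.85, -0.997 and -1.40.

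Among the other creatine kinases and the genes of creatine supply, CKB and CKMT1 rose and GATM and GAMT fell in the positive animals, out of 5, where 25.5% of all probes rose and 26.2% fell. CKB, the brain-type cytosolic creatine kinase, was 10.03 ± 0.61 (SD, n = 5) in the cross-breed controls and 12.09 ± 0.39 (n = 4) in the positive animals, a log2 difference of 2.07 (limma adjusted p = 0.000356) and opposite in sign to that of CKM. Its means in the unknown animals were 9.21 in group 2, 11.63 in group 4 and 12.06 in group 3. GATM, which makes the precursor of creatine, fell by 3.17 (limma adjusted p = 0.000603), with 2 of 4 positive animals well above background, so that this size rests in part on signals at background. GAMT, the last enzyme of creatine synthesis, had log2 differences of -0.89 in the positive animals, -0.89 in the Holstein controls and -1.06 in the unknown animals, and passed in all 3. SLC6A8, the creatine transporter, had 0.12 in the positive animals (limma adjusted p = 0.774).

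Of the other adenylate kinases, AK5 and AK8 rose in the positive animals, where 25.5% of all probes did, and AK3 and AK4 did not pass. Among Holstein controls AK5 rose, while AK3 (-0.68, limma adjusted p = 0.000609) and AK4 (-0.85, limma adjusted p = 0.0122) were lower, against 23.9% and 24.4%. In the positive animals AK8 was higher by 1.39 (limma adjusted p = 0.00607). AK5 was well above background in 0 of 5 cross-breed controls and in 3 of 4 positive animals, and was at least 3.18-fold higher in the latter. Such a bound sets the mean of the brighter group, over all its animals, against the dimmest signal called well above background on each array of the other, or against the probe's own signal there where that was higher. It takes no account of the spread between animals, so that a smaller fold remains possible. For AK5, with a measured log2 difference of 1.67, it lay near the measured fold. AK5 was well above background in 3 of 13 Holstein controls (limma adjusted p = 6.29e-05) and in 9 of 21 unknown animals (limma adjusted p = 0.0442), too few for a fold. In the unknown animals the call was lost whichever cross-breed control was left out. AK7 did not pass the filter.

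Of 9 genes that turn over AMP, IMP and adenosine, 2 rose and 1 fell in the positive animals, 5 rose and 1 fell in the Holstein controls and 4 rose and 1 fell in the unknown animals, against 25.5% and 26.2%, 23.9% and 24.4%, and 11.4% and 10.7% of all probes. The count in the positive animals was thus near that of all probes for genes that rose. XDH, the last enzyme of purine breakdown, was higher by 1.16 in the positive and 1.57 in the unknown animals. HPRT1, which salvages hypoxanthine, had log2 differences of -2.06, -1.89 and -2.62 in the positive, Holstein control and unknown animals, and passed in all 3, with 4 of 5 cross-breed controls, 2 of 4 positive animals, 1 of 13 Holstein controls and 7 of 21 unknown animals well above background, so that these lower signals lie mostly at background. NT5E, the ecto-enzyme that makes adenosine from AMP, was well above background in no cross-breed control, and was at least 7.44-fold higher in the Holstein controls and at least 4.64-fold higher in the unknown animals. PNP, which splits inosine, was higher by 1.17 in the unknown animals.

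Of 5 tested subunits of AMP-activated protein kinase, the sensor of AMP, PRKAB1 rose by 0.51 and PRKAG1 fell by 0.63 in the positive animals, against 25.5% and 26.2% of all probes, and none passed in the unknown animals. Among Holstein controls 1 rose (PRKAB1) and 3 fell (PRKAA1, PRKAG1 and PRKAG3), against 23.9% and 24.4%. PRKAG3, a subunit known from fast muscle, fell by 1.46 there, in a group of which 3 of 13 were well above background, so that this size rests on signals mostly at background. Of 6 genes for the exchange of ADP and ATP at the mitochondria, SLC25A4 rose and VDAC3 fell in the positive animals, where 25.5% and 26.2% of all probes did. SLC25A4, the adenine nucleotide carrier of muscle, was higher by 1.84 in the positive animals (limma adjusted p = 4.8e-05) and by 1.43 in the Holstein controls (limma adjusted p = 2.86e-06). In the unknown animals its means were 10.89 in group 2, 11.41 in group 4 and 14.67 in group 3, so that group 4 lay near group 2, as for CKMT2 and unlike AMPD1.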

How the data were processed

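Per the file headers and the study's methods, each deposited file holds the spots of 1 array read by Agilent Feature Extraction (9.5.1.1 for 38 arrays, 9.5.3.1 for 3 and 9.1.3.1 for K7 and K8). These versions come from the headers, while the study's methods name a single version. The authors deposited for each spot an intensity, gProcessedSignal, already background-corrected and detrended. Intensities were log2-transformed and, as in the study, normalized over 43 arrays together by cyclic loess (limma 3.58.1, 3 iterations). A probe was left out where its log2 signal was under 4 on at least 30 arrays, after the limit and the number of arrays in the study. The study does not say on which scale its limit was read, and this filter removed more probes (5121) than the study's own. Outlier spots were left out before the spots of a probe were averaged, a step the study does not describe. The authors' value table of linear normalized intensity, whose exact scaling is not stated, served as an alternative.

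Groups came from the labels, and the PCA groups from the study's figure. Label groups were compared with limma's moderated test (lmFit and eBayes) and Benjamini-Hochberg adjustment over 16354 probes. An adjusted p under 0.05 was called passed, and at least 2-fold in addition was called. Each array held 1 animal, and p-values rest on the spread between animals, taken as independent. The study drew the commercial animals from several batches of cattle, and which animals shared one is not known. Animals of a batch may therefore be alike. For the unknown animals against the cross-breed controls, 3610 probes passed, against 2508 with slide and 1915 with scan day as a random block. Permutation tests used 100000 resamples, two-sided. A planned correlation over all unknown animals was not made, because AMPD1 split them into sets. Symbols not given in the files came from RefSeq (ARS-UCD2.0) by accession or gene ID (13114 probes). For a list gene with several probes, the brightest was used. The number of arrays limits the precision.

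All probes of the 4 genes are named. Of each pathway list, genes past the threshold and 2-fold were to be named, at most 6 by size, with others by count; list genes named beyond this were added after their values were seen. The members and lists were chosen with earlier results of these data known. Alternatives were quantile normalization, 75th percentile scaling, cyclic loess on all pairs, no normalization, normexp (offset 50), the value table, no filter, outlier spots kept, a common fit, slide or scan day as a random block, and leaving out animals. Leaving out K7 and K8, animal 79, 5 animals of low spike-in signal or 11 of low ZFY was chosen after the data had been seen. The test was checked on simulated data. Some genes of the lists and rankings are not reported here.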

Additional observations from a re-analysis of the deposited data

Results flagged for a closer look

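Each member probe was checked for a single animal far from the rest of its group in 5 sets of 4 to 9 animals, which made 30 checks, and chance marks about 1 in 20. The 5 values marked were the following. AMPD1 was 12.03 in animal 58 of group 4, below the 12.53 to 12.62 of the 6 others. AK1 was 15.72 in animal 265 of group 2, below 16.07 to 16.15, and the second AK1 probe was 12.74 in animal 61 of group 3, below 13.69 to 14.36. In group 4, animal 76 had 16.63 for CKMT2, above 15.71 to 16.01, and 13.67 for the second CKMT2 probe, below 14.93 to 15.45. Animal 76 is the animal of group 4 that the study placed in group B, and its CKMT2 signals lay within the ranges of group 3 for the brighter probe (16.34 to 17.02) and just below it for the second (13.73 to 14.83). Animals 61 and 76 were among the 5 of lowest spike-in signal, whose part in these values was not tested.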

How the results depend on the processing

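AMPD1 kept its direction and its call under every alternative tried against the cross-breed controls, with log2 differences of -3.36 to -1.89 in the positive and -2.68 to -1.73 in the unknown animals. The second AK1 probe passed under all of them in the positive animals. Below, lost means that a difference no longer passed, and turned that its sign changed. Unless a cause is named, the cause of the changes below was not tested. No paired analysis was possible because only the number 21 was shared between groups (C21 and S21).

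With no normalization between arrays, which moved the median of all probes from -0.03 to -1.07 in the positive, from 0.01 to -1.04 in the Holstein control and from 0.01 to -0.74 in the unknown animals, the differences from the cross-breed controls went down with it. In the positive animals CKM (-1.30) passed, CKMT2 (0.30) was lost and the second CKMT2 probe (-0.62) turned. In the Holstein controls AMPD1 (-0.95) passed, CKM (-0.39) turned, and CKMT2 (0.029) and AK1 (0.046) were lost. Among unknown animals CKM (-1.03) and AK1 (-1.56) passed, and CKMT2 (-0.03) and its second probe (-0.20) turned.

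CKM also passed in the positive animals with quantile normalization (-0.56), with loess over all pairs (-1.06) and in the authors' value table (-0.55), and over single animals left out it ran from -0.62 to -0.42 and passed without S57, K10 or K12. AK1 was lost there with 75th percentile scaling (-0.60) and normexp (-0.65). In the Holstein controls CKM turned with quantile normalization (-0.10) and loess over all pairs (-0.035) and passed with 75th percentile scaling (0.53), with which the second AK1 probe turned (0.16). Among unknown animals CKMT2 was lost with 75th percentile scaling (0.76), loess over all pairs (0.58), the value table (0.68), without K7 and K8 (0.76) and without the 5 animals of low spike-in signal (0.60), and over single controls left out it ran from 0.70 to 0.81 and was lost without K8 or K12. AK1 passed with loess over all pairs (-0.92), normexp (-0.72), the value table (-0.88), in a common fit of all arrays (-0.77) and without the 11 animals of low ZFY (-1.08).

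Signs between the positive and the unknown animals were unstable, and no member probe passed in any fit. AMPD1 turned with slide (0.003) or scan day (0.057) as a block. CKM turned with 75th percentile scaling (0.13), slide (0.074), scan day (0.11) and without the 11 animals (0.076), and CKMT2 with loess over all pairs (-0.093), scan day (-0.0) and without the 11 animals (-0.14). The second CKMT2 probe turned with slide (0.055), scan day (0.08) and without the 11 animals (0.17), and AK1 with 75th percentile scaling (0.16), normexp (0.068) and without the 11 animals (0.12). On the shared slides CKMT2 turned with 75th percentile scaling (0.24), no normalization (0.18) and normexp (0.072), its second probe with loess over all pairs (-0.017), AK1 with 75th percentile scaling (0.23), loess over all pairs (0.028), no normalization (0.18), normexp (0.062), outlier spots kept (0.054) and the value table (0.045), and the second AK1 probe with 75th percentile scaling (0.049). Over single animals left out these ran from -0.11 to 0.008 for CKMT2, from -0.18 to 0.13 for AK1 and from -0.019 to 0.25 for the second CKMT2 probe.

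Between groups B and A, CKM moved to -0.22 with 75th percentile scaling and to -0.98 with loess over all pairs, and CKMT2 to 1.35 and 0.54. Among the Holstein controls, r of CKM and CKMT2 passed after adjustment with quantile normalization (0.691), 75th percentile scaling (0.811), loess over all pairs (0.719), no normalization (0.908) and normexp (0.758). AK1 turned with 75th percentile scaling, no normalization and normexp to 0.352, 0.471 and 0.127 for CKM and to 0.444, 0.61 and 0.04 for CKMT2. Without normalization AMPD1 passed with CKM (0.767), CKMT2 (0.815) and AK1 (0.774). In that setting the brightness of whole arrays was still in the values.

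Of all probes, 4598 were called at 2-fold in the positive animals against the cross-breed controls, 51.0% of them higher. The count was 9828 without normalization (12.4% higher), 1378 with normexp and 7590 without the filter, and the share higher was 39.1% with quantile normalization, 69.1% with 75th percentile scaling and 33.5% with loess over all pairs. In a common fit 4915 probes passed, against 8458. In the Holstein controls 3361 were called (52.9% higher), against 8613 (3.7%) without normalization and 1350 with normexp, with 35.4% higher with 75th percentile scaling. For the unknown animals 1706 were called (50.2% higher), against 4911 (2.9%) without normalization, 804 with normexp and 3815 without the 11 animals of low ZFY, with 39.0% higher with loess over all pairs, and 1915 and 1901 passed with scan day as a block and without K7 and K8, against 3610. Between the positive and the unknown animals 8 probes passed, with 0 to 135 under most alternatives, 1358 in a common fit and 1562 without the filter. On the shared slides 9 passed without animal 79. No pathway gene called at 2-fold turned under any alternative. In the positive animals the calls of CKB, AK8, XDH and SLC25A4 were lost without normalization, that of GATM with normexp, those of AK8 and SLC25A4 in a common fit and that of AMPD3 with scan day as a block. With 4 and 5 animals in the smallest groups, differences within the intervals printed beside each member cannot be resolved.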
